A study of Arabidopsis thaliana with 4 samples.

Results

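H3K4me3 peaks in Arabidopsis roots with and without osmotic stress were examined over the nuclear genes whose product name or gene description contains the words disease resistance. The rule picked 224 of 37899 nuclear genes in the TAIR10.1 annotation. The product name picked 194 of them and the gene description alone a further 30. By the wording of their products, 157 belonged to receptor classes: 106 had a TIR domain, 25 had a coiled coil (CC), 25 had an NB-ARC or NBS domain with neither word, and 1 (AT2G34930) had leucine-rich repeats only. The other 67 were 26 dirigent-like proteins, 8 enhanced disease resistance (EDR) proteins and 33 genes of mixed function, among them EDS1, PAD4 and SGT1B, which act with receptors, and BRX, a root growth regulator caught by its domain name. The label of an immune receptor family therefore covered 157 of the 224 members, and receptor classes were also counted separately. Class was read from text only, so a receptor whose text names no class was counted outside the receptor classes.

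Intracellular immune receptors of plants carry a nucleotide-binding domain (NB-ARC) and leucine-rich repeats (LRR), with a TIR or CC domain at the front, and start a defence response when a pathogen effector or its action is sensed. TIR receptors signal through EDS1 with PAD4 or SAG101, and SGT1, RAR1 and HSP90 help to keep receptors stable. Many of these genes lie in tandem clusters, and plants keep them in check, since overactive receptors stunt growth. Histone H3 trimethylated at lysine 4 (H3K4me3) marks the start of transcribed genes, and a peak of it does not by itself measure transcription.

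Roots of Col-0 seedlings were profiled by bulk CUT&Tag, in which an antibody directs a transposase to the mark and the cut fragments are sequenced. In the stress group seedlings grew on medium with 250 mM sorbitol, an osmotic stress, and in the control group on medium without it, for 10 days in both. Each group had 2 libraries, and both groups shared genotype and tissue. The labels name histone H3K4 methylation and root, and the study's methods name H3K4me3 and the root tip, so each library pools the cell types of that tissue, and fewer marked cells and a weaker mark in each cell cannot be told apart. The study's text calls such libraries biological replicates. The p-values from limma rest on the spread between the 2 libraries of each group. In that test each gene's spread is drawn towards that of genes of similar height.

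Depth differed with the condition: stress libraries 1 and 2 held 15974955 and 25714827 fragments, against 9011630 and 6396842 in control libraries 1 and 2. Depth and stress cannot be told apart in this design, since a deeper library calls weaker peaks. Peaks on chromosomes 1 to 5 numbered 14781 and 15783 in stress libraries and 13695 and 12698 in control libraries. Of 8 root genes, peaks covered 5 and 5 in stress libraries and 4 and 2 in control libraries, and WOX5, SHV2 and EXPA7 had none in any library. Of 5 leaf photosynthesis genes, peaks covered 1 and 1 in stress libraries and 0 and 0 in control libraries. SHR, a regulator of root radial pattern, fell by 0.86 ± 0.13 (SE) on the log2 scale under stress (limma adjusted p = 3.15e-06). CASP1, an endodermis gene, had peaks in the stress libraries alone. SCR, a partner of SHR, had 14 and 14.2 FPM in stress libraries (fragments at the peak's highest point per 1000000 of the library), against 14.6 in control library 1, and PLT1, a stem cell niche gene, had 4.32 and 3.34, against 3.77 in control library 1, and control library 2 had no peak at either. PHT1;1, a phosphate transporter gene, did not pass the test (log2 change 0.46; limma adjusted p = 0.0571). The part of cell composition in the results was not tested.

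A gene was given every peak that overlapped the span from 1 kb before its transcription start to its end. Height means the highest pileup (stacked fragments) among those peaks, scaled to 1000000 fragments of the library and given in fragments per that number, or FPM. Fold enrichment is the caller's ratio of pileup to local background. Sequences are shown first for the genes on which the comparison of heights turns: AT2G34930, with the largest rise, AT1G27180, the strongest rise among TIR receptors with a summit of its own in every library, AT1G58410, with the largest fall, and AT5G46510, a TIR receptor whose height fell in a cluster where that of its neighbour RPS6 rose, neither being called by fold enrichment. The lines give the 200 bases just before each transcription start, read 5′ to 3′ on the gene's strand from the TAIR10.1 genome. Capitals mark TTGAC or its complement GTCAA, the core of the W-box that WRKY transcription factors bind in immune genes.
AT2G34930, chr2:14740147-14740346, minus strand: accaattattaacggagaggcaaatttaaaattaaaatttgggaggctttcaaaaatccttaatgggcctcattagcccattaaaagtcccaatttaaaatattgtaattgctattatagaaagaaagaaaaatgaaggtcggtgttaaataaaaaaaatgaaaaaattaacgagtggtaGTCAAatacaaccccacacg
AT1G27180, chr1:9439453-9439652, plus strand: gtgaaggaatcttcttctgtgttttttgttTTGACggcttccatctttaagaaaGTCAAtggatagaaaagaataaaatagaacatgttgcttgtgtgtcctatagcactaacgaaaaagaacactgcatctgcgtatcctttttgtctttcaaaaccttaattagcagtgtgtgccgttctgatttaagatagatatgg
AT1G58410, chr1:21704983-21705182, minus strand: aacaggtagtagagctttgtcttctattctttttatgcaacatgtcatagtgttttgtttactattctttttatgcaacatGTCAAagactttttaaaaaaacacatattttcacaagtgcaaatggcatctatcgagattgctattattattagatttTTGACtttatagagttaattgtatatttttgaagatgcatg
AT5G46510, chr5:18860034-18860233, plus strand: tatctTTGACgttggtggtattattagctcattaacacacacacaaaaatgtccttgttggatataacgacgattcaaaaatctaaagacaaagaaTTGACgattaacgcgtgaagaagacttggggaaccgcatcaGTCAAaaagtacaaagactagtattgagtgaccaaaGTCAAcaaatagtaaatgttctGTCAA

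The 4 windows held 1, 2, 2 and 5 matches. Of the 157 receptor genes, 81 (51.6%) had at least 1 match on either strand within 200 bases of the start, and of all 27444 protein-coding genes 10632 (38.7%) did. A match is a string of letters and not a site, and whether a factor binds there was not measured. Peaks reached into the window of AT1G58410 and AT5G46510 in every library. They reached into that of AT2G34930 in both stress libraries and control library 2, and into that of AT1G27180 in both stress libraries and in neither control library.

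Peaks were found at 150 and 164 members in stress libraries 1 and 2, against 130 and 119 members in control libraries 1 and 2. These were 67% and 73.2% of members in stress libraries and 58% and 53.1% in control libraries. Over all nuclear genes the shares also differed between the groups, at 53.3% and 55.7% in stress libraries and 49.6% and 46.2% in control libraries. The mean was 157 ± 9.9 members in stress libraries and 124.5 ± 7.78 in control libraries (SD, n = 2 each). The stress libraries lay above the control libraries without overlap, and an exact two-sided permutation test gave p = 0.33, the smallest p that 2 against 2 libraries allow. When each library's peaks were thinned to 6396842 fragments, the depth of the shallowest, the means were 138.5 ± 6.36 members in stress libraries and 124 ± 7.07 in control libraries (SD, n = 2 each; exact p = 0.33). The difference thus shrank to 14.5 members at equal depth, against 32.5 as deposited. At equal depth 59.8% and 63.8% of members had a peak in stress libraries and 57.6% and 53.1% in control libraries. All nuclear genes had shares of 50.9% and 51.3% in stress libraries and 49% and 46.2% in control libraries at that depth. The difference between members and all genes was not tested. Thinning lowered the pileups only. Peaks that still passed kept their edges from full depth, so overlap with the spans was not matched for depth.

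**Figure D1:**
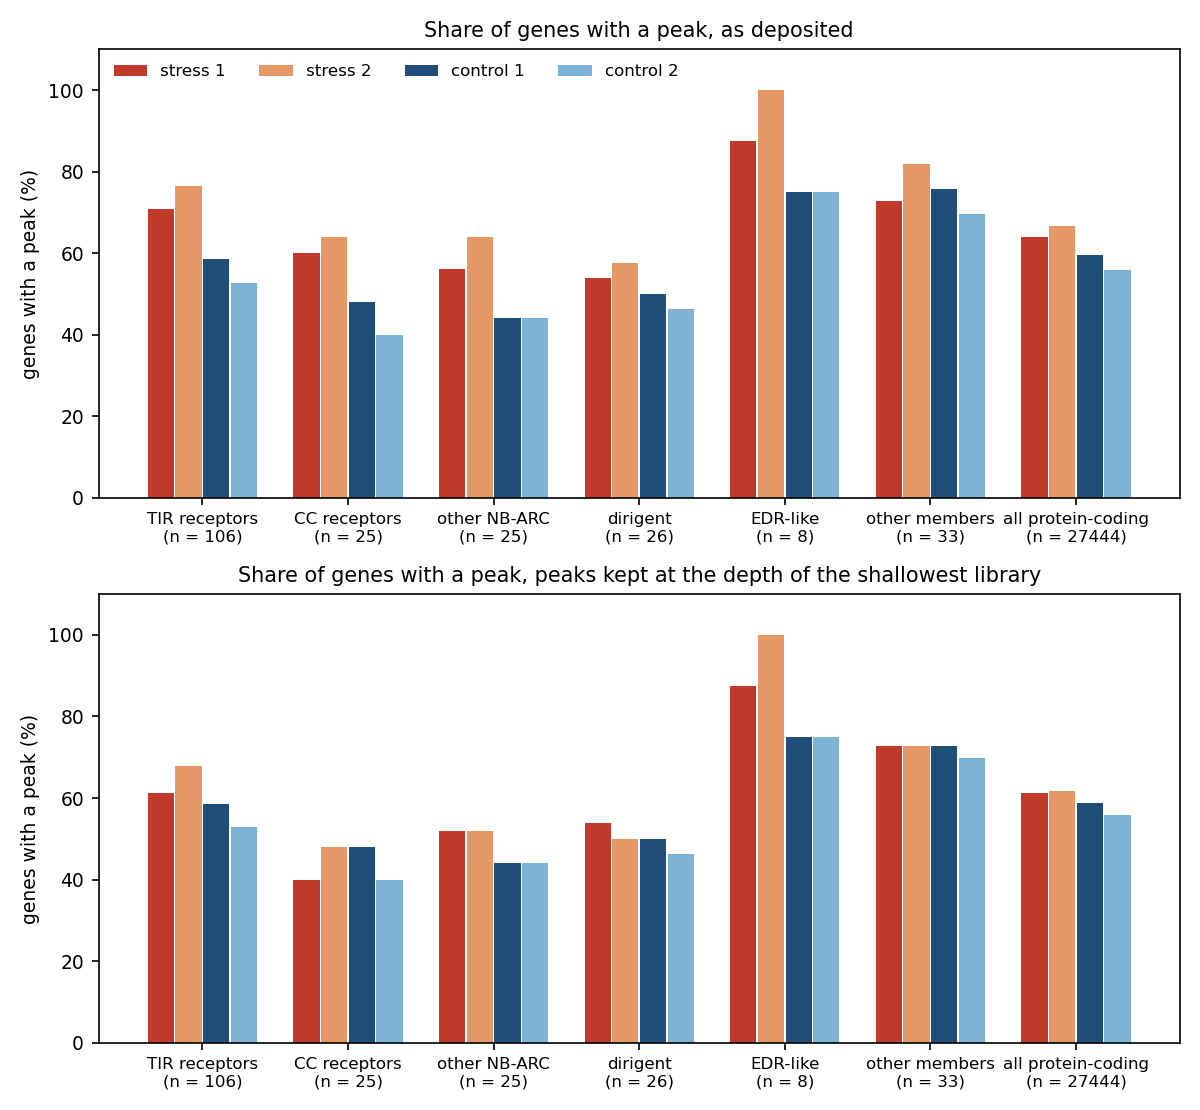
Share of genes with a peak, in percent, for classes of members and for all protein-coding genes (n under each label), with 1 bar per library and stress libraries left of control libraries; the upper panel uses peaks as deposited and the lower panel peaks that pass at the depth of the shallowest library. As deposited, 70.8% and 76.4% of TIR receptors had a peak in stress libraries, against 58.5% and 52.8% in control libraries, and the gap narrows in the lower panel. The class of 1 LRR gene, which had a peak in every library, is not drawn.

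A peak was present in every library at 117 of the 224 members (52.2%), beside 44.7% of all nuclear genes and 54.3% of protein-coding genes. No library had a peak at 58 members (25.9%), beside 43% of all nuclear genes and 32.1% of protein-coding genes. A further 14 members had a peak in stress library 2 alone, the deepest, 11 had one in every library but control library 2, the shallowest, 2 lacked it in control library 1 alone, and 2 had it in control library 1 alone.

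Receptor classes were marked in every library at 76 of 157 genes (48.4%), with 54 of 106 TIR genes, 10 of 25 CC genes and 11 of 25 other NB-ARC genes. Receptor genes are long (median 4234 bp, beside 2078 bp over protein-coding genes), and a long span has more room to meet a peak. Among receptors of 3 to 7 kb, 65 of 129 (50.4%) had a peak in every library, beside 4751 of 6521 protein-coding genes of that length (72.9%). This length range was chosen after the data had been seen, and the difference was not tested. It also depended on the peak cutoff. With only peaks of a fold enrichment of at least 4 counted, the shares at that length were 32.6% of receptors and 37.5% of protein-coding genes. Over all lengths they were then 30.6% and 24.9%. Receptors within 20 kb of another member were marked in every library at 49 of 110 (44.5%) and receptors standing alone at 27 of 47 (57.4%). This order depended on the peak cutoff too. It reversed when peaks had to reach 4 in fold enrichment, at 35 of 110 (31.8%) and 13 of 47 (27.7%). The other settings for peaks and spans kept the order, with 42.7% and 57.4% at equal depth. The difference between clustered and lone receptors was not tested.

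Several well studied receptors had no peak in any library. These included RPM1 and RPP13, CC-type receptors of bacterial and oomycete effectors, RPP8 and RPP4, which give resistance to downy mildew, SUMM2, which guards a MAP kinase pathway, the TIR genes WRR4 and LAZ5, and AT1G17600 and AT1G17610, neighbouring TIR genes. Reads from near-identical copies cannot be placed with certainty. Of the 157 receptors 6 had a stretch of at least 300 bp matching elsewhere in the genome at 98% identity or more, and 5 of these 6 had no peak in any library. Of the other 151 receptors 37 (24.5%) had none. Of the copied receptors without a peak, AT1G58807, AT1G58848, AT1G59124 and AT1G59218 lie in the same cluster. RPM1, SUMM2, WRR4, AT1G17600 and AT1G17610 had no such stretch. The part of copies in the missing peaks was not tested.

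At 20 members (8.93%) both stress libraries and neither control library had a peak, beside a background of 4.05% of all nuclear genes. The reverse pattern was found at 0 members, beside a background of 0.237%. Of the 20 members 18 were receptors (11.5% of receptors): 12 TIR, 3 CC and 3 other NB-ARC genes. At equal depth 8 members (3.57%) kept the stress-only pattern, 6 of them receptors (3.82% of receptors). Beside these stood 2.5% of all nuclear genes and 2.82% of protein-coding genes. The count moved to 34 without stress library 1 and to 31 without control library 1. With pileups thinned and peak edges kept, the share at members thus lay closer to that of all genes.

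The highest of these 20 were near the edge of neighbouring peaks or weakly enriched. The NB-ARC gene AT3G46730 had 17.2 and 14.0 FPM in stress libraries, with fold enrichment of 4.65 and 4.02, and its summits lay nearest another gene's start. The EDR-like gene AT1G06050 had 12.2 and 10.4 FPM in stress libraries, also with summits nearest another gene's start. Both kept the stress-only pattern at equal depth.

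RPS2, the NB-ARC receptor that guards RIN4 against a Pseudomonas effector, had 8.95 and 10.8 FPM in stress libraries with fold enrichment of only 1.89 and 1.63. Its summits lay 3155 and 396 bp from its start, so the peaks of stress libraries 1 and 2 were at different places in the gene. TAO1, a TIR receptor, had 6.70 and 6.46 FPM in stress libraries, with summits 194 and 289 bp from its own start and fold enrichment of 3.0 and 3.17. Of these, TAO1 was thus the one with a stress-only peak just inside its own start in both stress libraries, and both receptors kept the pattern at equal depth.

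The dirigent gene AT3G24020 had 9.01 and 7.39 FPM in stress libraries and also kept the pattern. AT5G18360 had 3.63 and 3.42 FPM in stress libraries, at its own start, and kept it too. AT1G65850, AT5G48780 and AT5G45210, all TIR genes, had means of 7.64 ± 0.629, 6.71 ± 0.0212 and 3.80 ± 0.915 FPM in stress libraries (SD, n = 2 each) and did not keep the pattern at equal depth. The other 10 of the 20 had means between 1.52 and 2.83 FPM in stress libraries, among them RPP5, a TIR receptor of downy mildew, at 2.82 and 2.84. Of the 20 members 12 had the summit nearest their own start in both stress libraries, and 3 of those 12 kept the pattern at equal depth.

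Heights could be compared at the 117 members with a peak in every library. Median height over them was 11 and 11 FPM in stress libraries and 10.5 and 10.6 in control libraries, beside 14.0 and 13.1 in stress libraries and 13 and 13.1 in control libraries over all 16947 genes with a peak in every library. Median fold enrichment over the 117 was 4.61 and 4.64 in stress libraries and 4.41 and 4.48 in control libraries. By limma, fitted over all 16947 genes, 10 members (8.55%) were higher and 15 (12.8%) lower under stress at an adjusted p below 0.05. Among all genes tested 8.31% were higher and 11% lower, so the shares of members lay near the background and are no result about the members as a group. The median log2 change was -0.0091 over members and -0.0016 over all genes. The 2 groups of libraries did not overlap at 32 members that were higher and 35 that were lower under stress, beside 30.3% and 30.5% of all genes tested.

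**Figure D2:**
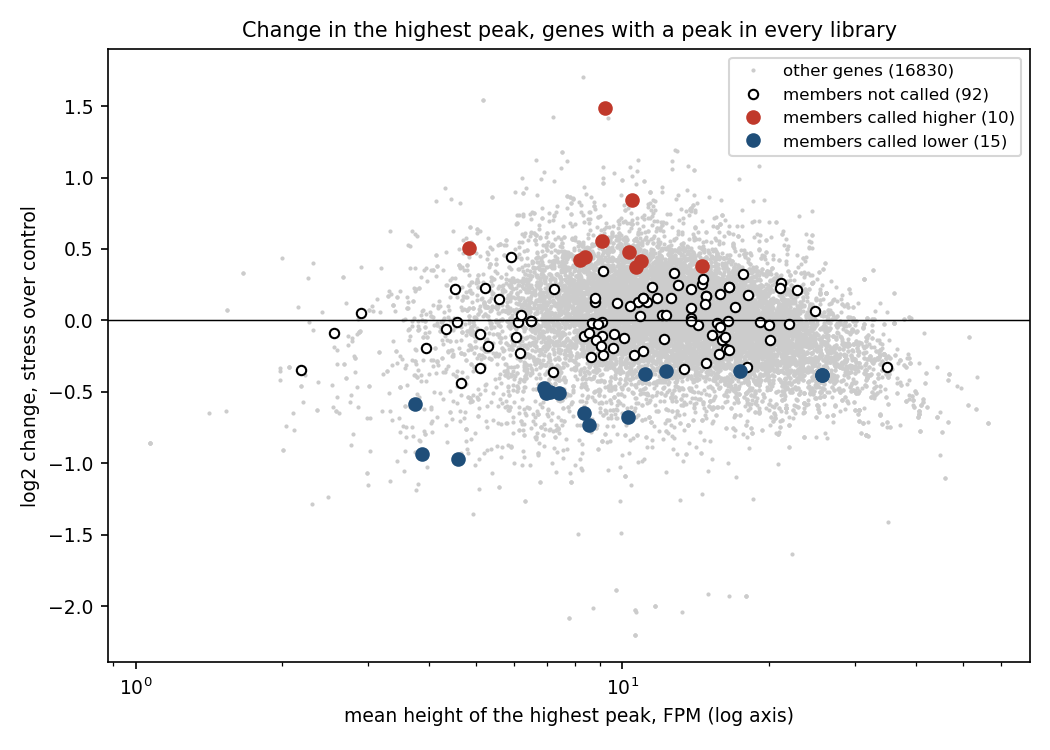
Log2 change in height, stress over control, against mean height in FPM (log axis) for the 16947 genes with a peak in every library, with the 117 members drawn over the other 16830 genes. Of the members, 10 called higher and 15 called lower lie within the cloud of other genes except AT2G34930 at 1.49, near its upper edge; AT1G72840 and AT1G72850 share a peak and fall on the same point.

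Among receptor classes 7 of 76 tested genes were higher and 8 lower, with 6 higher and 5 lower of 54 TIR genes, 0 higher and 2 lower of 10 CC genes (1 higher and 4 lower at an unadjusted p below 0.05), and 0 higher and 1 lower of 11 other NB-ARC genes (2 higher and 1 lower at an unadjusted p below 0.05). Of 12 dirigent genes 1 was higher and 3 lower, and of 6 EDR genes 0 were higher (0 at an unadjusted p below 0.05) and 2 lower. Of the 23 genes of mixed function 2 were higher and 2 lower. Over all genes tested 8.31% were higher and 11% lower. Most classes held few tested genes, and differences between a class and all genes were not tested.

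The largest rise was at AT2G34930, a single-exon gene for an LRR protein on chromosome 2 (14737066 to 14740146, minus strand) outside any cluster. Its height was 15.7 and 15.2 FPM in stress libraries, against 5.22 and 5.78 in control libraries. Both stress libraries lay far above both control libraries, with means of 15.4 ± 0.339 and 5.50 ± 0.402 (SD, n = 2 each). The log2 change was 1.49 ± 0.14 (SE; limma adjusted p = 6.04e-11). The peak was also wider, at 1533 and 2014 bp in stress libraries against 508 and 701 bp in control libraries, and the stress libraries were also the deeper ones. Summits were 277 and 440 bp inside the gene in stress libraries and 215 and 101 bp in control libraries. By fold enrichment the log2 change was smaller, 0.56 ± 0.11 (SE; limma adjusted p = 0.00609). The call held with any library left out, at 1.41 to 1.56.

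AT5G41550, a TIR-NBS-LRR gene, had 14.7 and 13.4 FPM in stress libraries, against 9.54 and 6.41 in control libraries (log2 change 0.84 ± 0.15 SE; limma adjusted p = 5.9e-05). The stress and control values were not taken at the same place. In stress libraries the highest peak was 2364 and 2381 bp wide with its summit 1665 and 1660 bp before the gene, nearest AT5G41560. In control libraries it was 1002 and 808 bp wide with its summit 48 and 129 bp inside the gene. Compared over merged regions, which take the highest pileup of the whole region in each library, the log2 change was -0.006.

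AT1G27180, a TIR-NBS-LRR gene, had 11 and 11 FPM in stress libraries, against 7.66 and 7.35 in control libraries. The log2 change was 0.55 ± 0.14 (SE; limma adjusted p = 0.00425), and the call held with any library left out. Its summits lay well inside the gene, 1635 and 1752 bp from the start in stress libraries and 1752 and 1754 bp in control libraries. The peak was 2422 and 2440 bp wide in stress libraries and 1468 and 1311 bp wide in control libraries, so in the stress libraries it extended over the start and into its upstream window.

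The other 7 rises were smaller, at 1.29 to 1.42 times the control mean. AT5G38340, a TIR gene, had 5.88 and 5.64 FPM in stress libraries, against 4.22 and 3.91 in control libraries (log2 change 0.50). RLP52, a cell-surface receptor-like protein, had 12.8 and 11.6 in stress libraries, against 7.77 and 9.85 in control libraries (0.48). RPS6, a TIR receptor of a Pseudomonas effector, had 10.4 and 9.22 in stress libraries, against 6.88 and 7.5 in control libraries (0.45). In all 3 the stress libraries stood above both control libraries, as they did at 30.3% of all genes tested.

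The dirigent gene AT5G49040 had 10.3 and 8.79 FPM in stress libraries, against 7.1 and 7.04 in control libraries (log2 change 0.43). AT1G72950, a TIR-NBS gene, had 12.4 and 12.8 in stress libraries, against 9.65 and 9.22 in control libraries (0.42). AT4G12010, a TIR gene whose peak summit lay nearest the start of WRKY19, a receptor fused to a WRKY domain, had 12.6 and 11.8 in stress libraries, against 8.65 and 10.2 in control libraries (0.38). For the pseudogene AT3G03855, with 16.3 and 17.0 in stress libraries, against 12.3 and 13.3 in control libraries (0.38), the summit lay at the neighbour APRL5 in 3 libraries and 46 bp from its own start in control library 1. By fold enrichment 4 of these 7 were not called: RPS6 (log2 change 0.13; limma adjusted p = 0.392), AT1G72950 (0.24; adjusted p = 0.12), AT4G12010 (0.22; adjusted p = 0.159) and AT3G03855 (-0.0097; adjusted p = 0.968). AT5G38340, RLP52 and AT5G49040 kept their calls by that measure. Adjusted p of these 7 in limma ran between 0.0125 for RLP52 and 0.0443 for AT4G12010, and each lost its call when some single library was left out, with the direction kept. AT5G38340 and AT5G49040 lost it without any of the 4 libraries, at log2 changes of 0.45 to 0.56 and 0.31 to 0.54. RLP52 lost it without stress library 1 or control library 1, at 0.41 and 0.31. RPS6 and AT4G12010 lost it without stress library 1, stress library 2 or control library 1, at 0.36 to 0.53 and 0.26 to 0.42. AT1G72950 lost it without either stress library or control library 2, at 0.39 to 0.44, and AT3G03855 without stress library 2 or either control library, at 0.33 to 0.44.

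**Figure D3:**
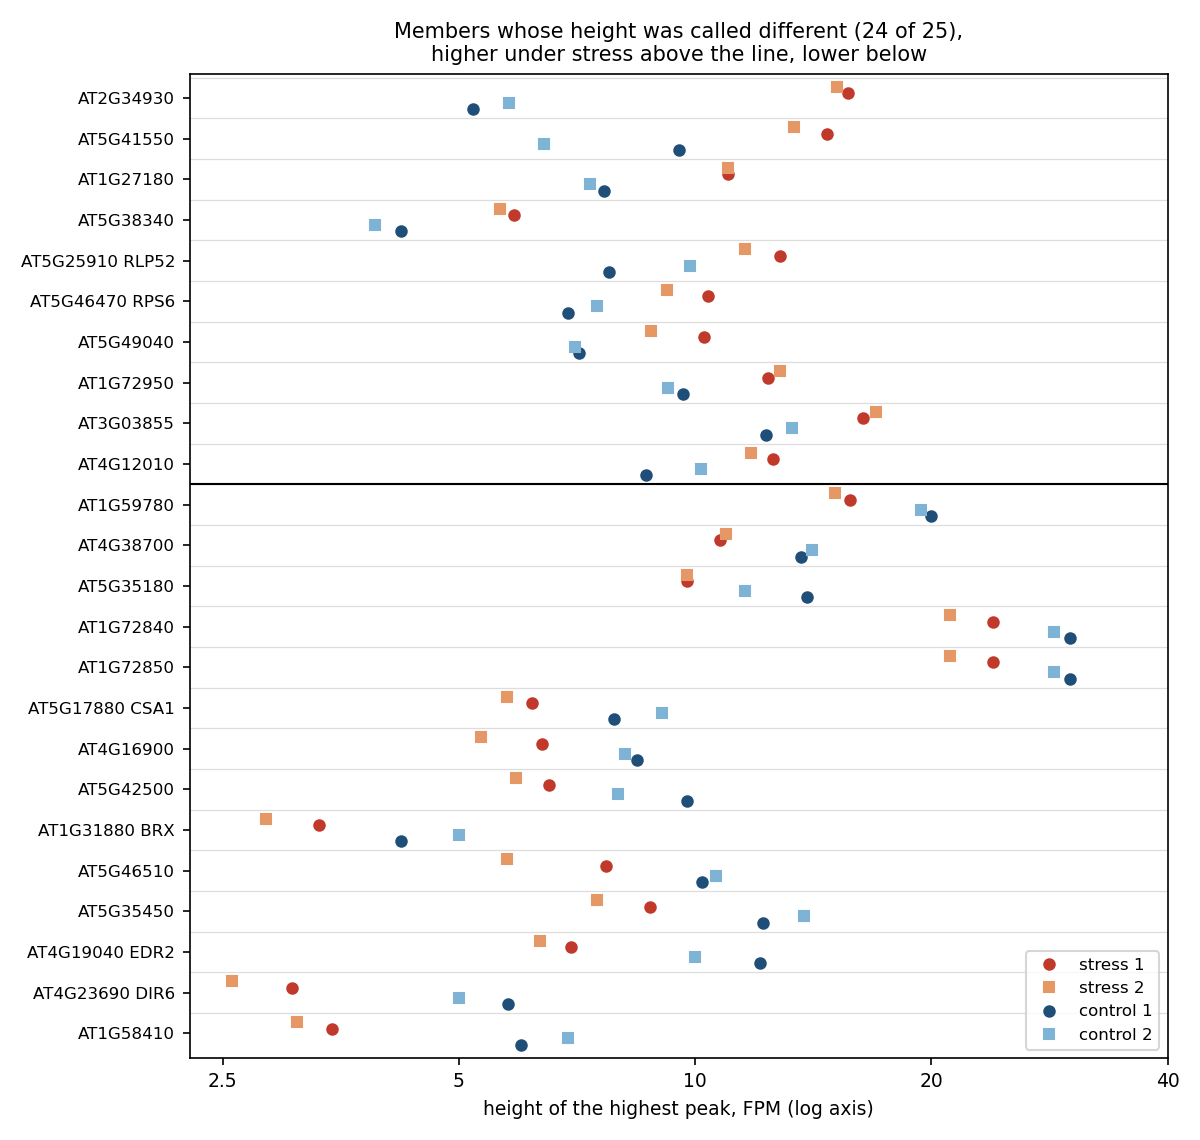
Height in FPM (log axis) in each of the 4 libraries for 24 of the 25 members called by limma, ordered by log2 change, with 10 that were higher under stress above the line and 14 that were lower below it; circles are replicate 1 and squares replicate 2, and stress points sit above control points within each row. The stress points of AT2G34930 (15.7 and 15.2) stand far from its control points (5.22 and 5.78), while most other rows are separated by less than 1.5 times.

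The largest fall was at AT1G58410, a CC-NBS-LRR gene on chromosome 1 (21701185 to 21704982, minus strand). Its height was 3.44 and 3.11 FPM in stress libraries, against 5.99 and 6.88 in control libraries. Stress libraries reached about 0.509 of the control mean (log2 change -0.97 ± 0.18 SE; limma adjusted p = 0.000146). DIR6, a dirigent protein that guides lignan coupling, had 3.07 and 2.57 in stress libraries, against 5.77 and 5.0 in control libraries (-0.94 ± 0.20 SE; limma adjusted p = 0.000538). Both had their summits within 625 bp after their own starts in every library.

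EDR2, a negative regulator of mildew resistance and cell death, had 6.95 and 6.34 FPM in stress libraries, against 12.1 and 10.0 in control libraries (log2 change -0.73 ± 0.15 SE; limma adjusted p = 0.00037). Its summits lay 222 to 276 bp before its start in every library. AT5G35450, a CC-NBS-LRR gene, had 8.76 and 7.51 in stress libraries, against 12.2 and 13.8 in control libraries (-0.68 ± 0.14 SE; limma adjusted p = 0.000427), with summits 1195 to 1215 bp inside the gene. These 4 falls kept their call with any library left out and by fold enrichment, where their log2 changes were -0.60 at AT1G58410, -0.59 at DIR6, -0.51 at EDR2 and -0.32 at AT5G35450.

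AT5G46510, a TIR gene, had 7.70 and 5.76 FPM in stress libraries, against 10.2 and 10.6 in control libraries (log2 change -0.65 ± 0.15 SE; limma adjusted p = 0.00195). The call was lost without stress library 2, at -0.44, and by fold enrichment, where stress libraries had 8.39 and 8.36 and control libraries 9.16 and 8.84 (-0.10; limma adjusted p = 0.448). BRX had 3.32 and 2.84 in stress libraries, against 4.22 and 5.0 in control libraries (-0.58). The dirigent gene AT5G42500 had 6.51 and 5.91 in stress libraries, against 9.77 and 7.97 in control libraries (-0.51). Stress libraries were below both control libraries at each, as they were at 30.5% of all genes tested.

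AT4G16900, a TIR gene next to SNC1, had 6.39 and 5.33 FPM in stress libraries, against 8.43 and 8.13 in control libraries (log2 change -0.51). CSA1, a TIR receptor linked to shade and defence, had 6.20 and 5.76 in stress libraries, against 7.88 and 9.07 in control libraries (-0.50). For AT4G16900, CSA1, BRX and AT5G42500, adjusted p in limma ran between 0.0165 and 0.033, and the call was lost without some single library: BRX without either stress library or control library 2, at -0.69 to -0.46, AT5G42500 and AT4G16900 without stress library 2 or control library 1, at -0.44 and -0.36 and at -0.37 and -0.48, and CSA1 without stress library 2 or control library 2, at -0.45 and -0.40. By fold enrichment AT4G16900 (log2 change -0.24; limma adjusted p = 0.0947) and AT5G42500 (-0.17; adjusted p = 0.353) were not called, while BRX (-0.39) and CSA1 (-0.36) kept their calls. A further 5 falls, AT1G72850, AT1G72840, AT5G35180, AT4G38700 and AT1G59780, had log2 changes between -0.38 and -0.35, and each lost its call without some single library. In all, 7 of the 25 calls held with any library left out, and 17 were lost without stress library 2, the deepest.

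Measured by fold enrichment, 9 members were higher and 9 lower, beside 7.72% and 6.06% of all genes. Of these, 6 were among the 10 that were higher by height and 8 among the 15 that were lower by height. The local background of the caller covers 10000 bp, so in a gene cluster it can hold peaks of neighbouring members. Its part in the calls that differ between the measures was not tested.

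**Figure D4:**
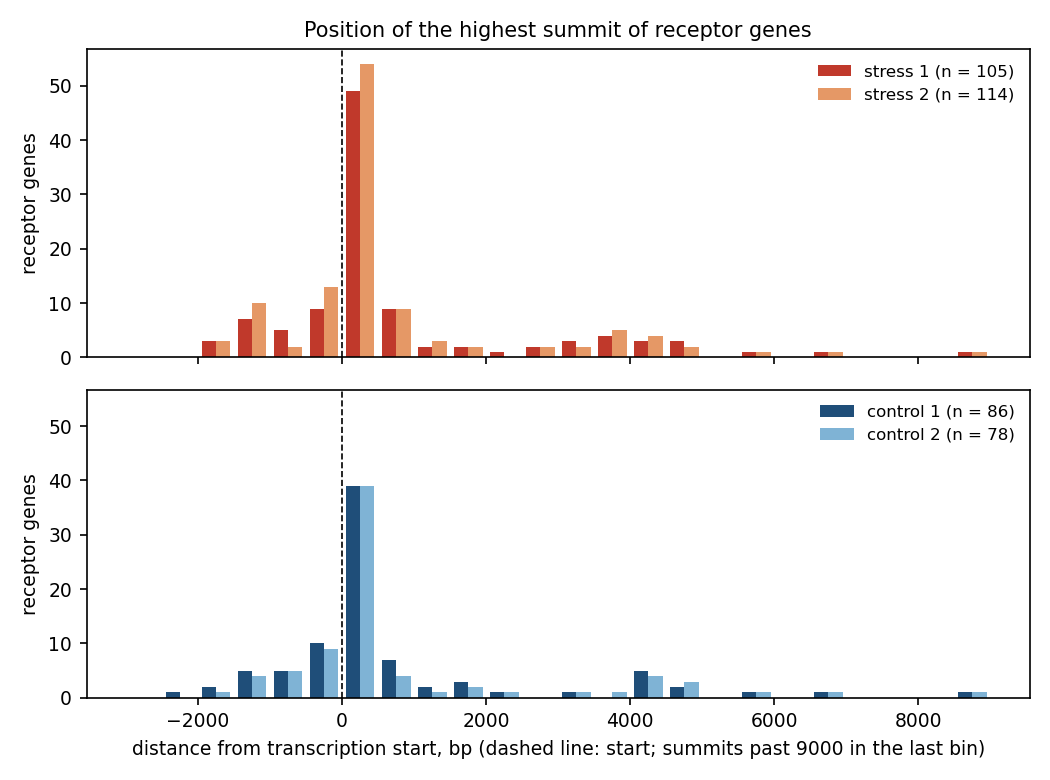
Distance in bp from the transcription start to the summit of the highest peak for receptor genes with a peak, in bins of 500 bp, with stress libraries in the upper panel and control libraries in the lower. Most summits fall just inside the gene in all 4 libraries, at a median of 219 and 250 bp in stress libraries and 185.5 and 201 bp in control libraries.

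Summits of receptor genes lay most often, but far from always, just after the start, where H3K4me3 is usually found. Between 0 and 1000 bp after the start lay 58 of 105 and 63 of 114 summits in stress libraries, and 46 of 86 and 43 of 78 in control libraries. Upstream of the start lay 24 and 28 in stress libraries and 23 and 19 in control libraries, many of them at a neighbouring gene. More than 1000 bp after the start lay 23 and 23 in stress libraries and 17 and 16 in control libraries. Of 115 receptors with a peak in any library, 74 had their highest summit nearest their own start in every library with a peak, and 32 in none. At those 32 the height was read at a summit nearer another gene's start.

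Several of the tallest members were of this kind. AT5G18370, a TIR gene, had 35.2 and 27.7 FPM in stress libraries, against 38.6 and 39.7 in control libraries (log2 change -0.33; limma adjusted p = 0.119), with summits 1743 to 1877 bp before its start. AT5G11250, a TIR gene, had 24.2 and 21.7 in stress libraries, against 24.2 in control library 1 and no peak in control library 2, and its summits lay nearest HY5, a light signalling factor. NHL3, a membrane protein whose overexpression raises resistance to bacteria, had 24.2 and 26.9 in stress libraries, against 24.3 and 24.4 in control libraries, with summits 390 to 502 bp inside its own start, and the groups overlapped.

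RPS4 and RRS1, a receptor pair that works as a unit, are transcribed away from each other with 27 bp between them and share a single peak that covers the gap in every library. The stretch between the genes is shown because the values of both come from it and what flanks it.
RPS4 to RRS1, chr5:18326176-18326202, plus strand: tgagatttgagtggttgaatgtccaat
The shared height was 17.5 and 18.4 FPM in stress libraries, against 13.7 and 17.0 in control libraries, with a log2 change of 0.24 ± 0.13 (SE; limma adjusted p = 0.181). Control library 2 lay near the stress libraries. The summit lay inside RPS4 in every library, 182 and 343 bp from its start in stress libraries and 185 and 345 bp in control libraries. The stretch held no TTGAC or GTCAA.

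Other receptors of known function did not pass the test. ADR1, a CC helper receptor on which many TIR receptors depend, had 12.3 and 11.6 FPM in stress libraries, against 14.3 and 15.8 in control libraries (log2 change -0.34 ± 0.13 SE; limma adjusted p = 0.0521). RPP1, a TIR receptor of downy mildew, had 5.26 and 4.63 in stress libraries, against 6.10 and 4.53 in control libraries (-0.093; limma adjusted p = 0.756). SNC1, a TIR receptor whose overactive form stunts growth, had 4.63 and 3.89 in stress libraries, against 4.33 and 4.53 in control libraries (-0.062; limma adjusted p = 0.85). Its summits lay 3340 to 3436 bp inside the gene in every library, far from the start. For RPP1 and SNC1 the groups overlapped.

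AT5G66910, a CC gene, had 15.9 and 18 FPM in stress libraries, against 14.7 and 15.2 in control libraries (log2 change 0.18; limma adjusted p = 0.298). Its tandem neighbour AT5G66900 had 8.70 and 8.98 in stress libraries, against 8.88 in control library 1 and no peak in control library 2. AT1G58602, an NB-ARC gene on chromosome 1, had 5.76 and 5.52 in stress libraries, against 4.77 and 4.85 in control libraries (0.23; limma adjusted p = 0.358), with summits 16611 to 16714 bp from its start and nearest another gene. The 4 other members of its cluster had no peak in any library.

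Members lay in 48 clusters of 2 or more with at most 20 kb between neighbours, which held 134 members, while 90 stood alone. In 2 clusters the calls by height went in both directions. The 9 members of the largest cluster, around SNC1 on chromosome 4, are TIR genes and span 83.1 kb. A peak was present in every library at 3 of them, in the stress libraries alone at 2 (RPP5 and AT4G16940), and in no library at 2 (RPP4 and RLM3). AT4G16960 had the greatest height in it, with 8.58 and 7.54 FPM in stress libraries, against 11.2 and 6.72 in control libraries. Heights in this cluster were 11.2 FPM at most, and AT4G16900 was its only called member.

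**Figure D5:**
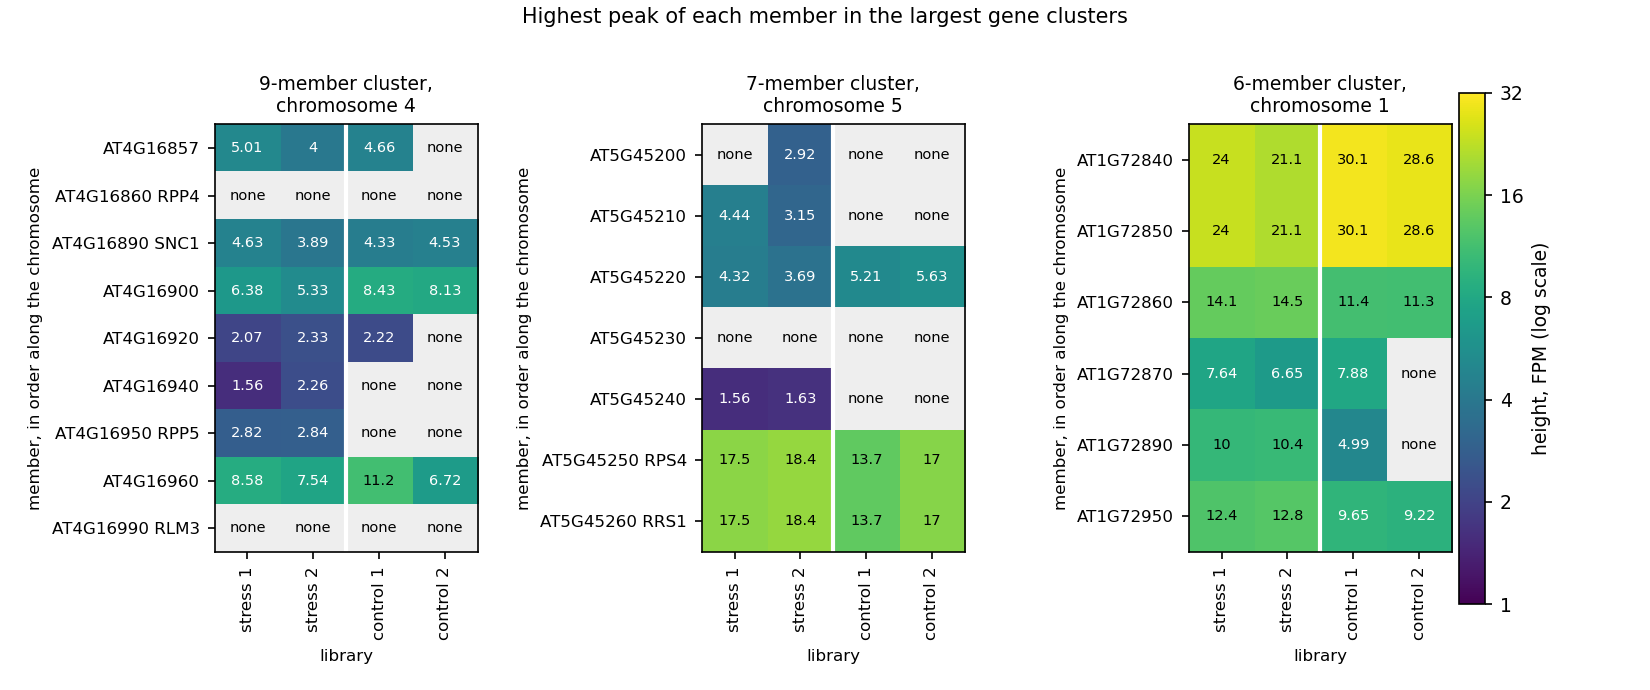
Height in FPM (colour on a log scale, value printed in each cell) of each member of the 3 largest clusters, with members in chromosome order down the page and the 4 libraries across, stress left of control; grey cells had no peak. Neighbours differ widely within a cluster, with RPS4 and RRS1 at 13.7 to 18.4 beside AT5G45240 at 1.57 and 1.63 in stress libraries and none in control libraries.

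The 7-member cluster on chromosome 5 (49.3 kb) ends with RPS4 and RRS1. Of its other members AT5G45220 was marked in every library, with 4.32 and 3.69 FPM in stress libraries, against 5.21 and 5.63 in control libraries (log2 change -0.44; limma adjusted p = 0.0802). AT5G45210 and AT5G45240 were marked in the stress libraries alone, at heights of 4.44 or less. No member of this cluster was called.

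The 6-member cluster on chromosome 1 (36.8 kb) held calls by height in both directions. At one end the divergent TIR genes AT1G72840 and AT1G72850 shared a tall peak, with 24.0 and 21.1 FPM in stress libraries, against 30.1 and 28.6 in control libraries (log2 change -0.38; limma adjusted p = 0.0317). That call was lost without stress library 2 or either control library, at -0.42 to -0.29. At the other end AT1G72950 was higher under stress by height, and was not called by fold enrichment (0.24; limma adjusted p = 0.12). Between them AT1G72860 had 14.1 and 14.5 in stress libraries, against 11.4 and 11.3 in control libraries (0.33; limma adjusted p = 0.0553), and AT1G72870 and AT1G72890 had no peak in control library 2.

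The other cluster with calls by height in both directions lies on chromosome 5 and spans 36.9 kb. By height RPS6 was higher and AT5G46510 lower under stress, and by fold enrichment neither was called (log2 changes 0.13 and -0.10; limma adjusted p = 0.392 and 0.448). The next gene, AT5G46520, did not pass the test. It had 6.89 and 5.02 FPM in stress libraries, against 4.99 and 5.63 in control libraries (log2 change 0.15; limma adjusted p = 0.584). The start of AT5G46520 lies just after the end of AT5G46510, and each had its summit nearest its own start in every library.

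The signalling partners of receptors were followed as a list of 30 genes, 6 of which are also members (EDS1, PAD4, PBS2, SGT1B, HSP90.1 and EDS5). Of these 21 had a peak in every library, and 1 was higher and 1 lower under stress, with a median log2 change of -0.082, beside 8.31% higher and 11% lower and a median of -0.0016 over all genes. CPR1, an F-box protein that lowers the level of SNC1, had 19 and 16.8 FPM in stress libraries, against 12.2 and 14.1 in control libraries (log2 change 0.45 ± 0.12 SE; limma adjusted p = 0.00851). TPR1, a co-repressor that works with SNC1, had 12.6 and 11.6 in stress libraries, against 16.6 and 15.6 in control libraries (-0.42 ± 0.12 SE; limma adjusted p = 0.0146). In both the groups did not overlap, beside 30.3% of all genes tested that were higher without overlap and 30.5% that were lower.

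EDS1 had 15.3 and 15.6 FPM in stress libraries, against 18.5 and 17.0 in control libraries (log2 change -0.21; limma adjusted p = 0.233), and PAD4 had 11 and 12.3 in stress libraries, against 14.1 and 11.6 in control libraries (-0.13; limma adjusted p = 0.511). SGT1B, a co-chaperone of receptors, had 22.6 and 21.0 in stress libraries, against 22.0 and 22.4 in control libraries (-0.026; limma adjusted p = 0.906). PBS2, which is RAR1, had 16 and 16.4 in stress libraries, against 14.0 and 12.5 in control libraries (0.29; limma adjusted p = 0.0908). No library had a peak at 8 of the list, including the defence output genes PR1, BGL2 and PR5 and the salicylic acid regulator CBP60G. EDS16, which makes salicylic acid precursors, had a peak in control libraries alone, at 16.3 and 16.6, and this was the edge of a peak over the start of the next gene, QKY, that reached back over the end of EDS16 in the control libraries but not in the stress libraries.

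Cell-surface immune receptors and their partners were a list of 7 genes, of which 6 had a peak in every library, 0 were higher by limma (0 also at an unadjusted p below 0.05) and 1 was lower. BAK1, the shared co-receptor, had 21.5 and 19.6 FPM in stress libraries, against 26.0 and 26.9 in control libraries (log2 change -0.37 ± 0.13 SE; limma adjusted p = 0.0341). CERK1, the chitin receptor, had 13.6 and 15.1 in stress libraries, against 11.9 and 12.2 in control libraries (0.25; limma adjusted p = 0.157), and the median log2 change over the 6 was 0.14. FLS2, the flagellin receptor, had a peak of 2.06 in stress library 2 and of 2.89 in control library 1 and none in the other two.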

How the data were processed

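CUT&Tag against H3K4me3 was analysed in 2 stress and 2 control libraries of Col-0 roots. Per the submitters' processing notes, reads were trimmed with fastp 0.19.7, aligned with Bowtie2 2.3.5.1 to TAIR10 and used for peak calling with MACS2. Per the file headers, MACS 2.2.7.1 called peaks in each library on paired fragments with a p-value cutoff of 1e-05, all duplicates kept, no control library, a local background of 10000 bp and an effective genome size of 2700000000, larger than the genome. For each peak the authors deposited the pileup, a signal in fragments not scaled to depth, the fold enrichment, a ratio of pileup over local background, and both the p-value and the q-value as −log10.

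Pileup was scaled to 1000000 of the fragments given in the file header (FPM). Chromosomes 1 to 5 of TAIR10.1 ended after the last peaks, and its annotation gave 37899 nuclear genes. The rule's word description was read as the note on the gene line; 53 genes with the words in coding-sequence notes alone, such as ZAR1, were not counted. The test of log2 height was limma's moderated test (version 3.58.1, R 4.3.3, lmFit followed by a trended eBayes; Benjamini-Hochberg threshold 0.05) over the 16947 genes with a peak in every library. On simulated data for that comparison, limma recovered 100% of 200 genes changed by 1 on the log2 scale with 21 false calls, and called 1 of 16947 without change. The 21 false calls were a larger share of all calls than the threshold of 0.05. The simulation held no depth difference. Its change of 1 exceeded that of every called member but AT2G34930, so it does not show how well smaller changes are recovered. A missing peak gives no height, so height is known only where peaks were called. For equal depth, each pileup was drawn binomially at 6396842 fragments and kept if its Poisson p still passed; the pileup and background of the tables gave back 56845 deposited −log10 p-values within 0.00119. Exact permutation tests over libraries were two-sided. Copies were sought with blastn 2.17.0+. Other steps used Python 3.11.15, pandas 2.3.3, numpy 2.4.6, scipy 1.17.1 and matplotlib 3.10.9.

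Genes named were the 10 largest called rises and falls, the 10 highest stress-only members, receptors of known function, the 5 highest members, called genes of each list and the 3 largest clusters. The cluster of RPS6 and AT5G46510, the smallest 5 falls, CERK1, FLS2 and the partners EDS1, PAD4, SGT1B, PBS2 and EDS16 were named after their values were seen. Some genes that this rule picked are not reported here by name, though they stay in the counts. Members, lists and tests were chosen with earlier results of these data known. Alternatives covered peak thresholds, spans, scaling, filters, the fit, a replicate block, each library left out and the definition of members. Those on the annotation text, on protein-coding genes, on copies and on the nearest start were chosen after seeing the data.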

Additional observations from a re-analysis of the deposited data

How the results depend on the processing

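Of the 224 members, the count marked in every library kept within 1.5 times its value of 117 except with a fold enrichment of at least 4 (63), receptor classes only (76) and the summit nearest the own start (74). The stress-only count of 20 was 13 with that fold enrichment, 8 at equal depth and 12 with the nearest-start rule, and 20 to 34 with each library left out. The 13 were 5.8% of members, beside 2.42% of all nuclear genes with that fold enrichment. The control-only count of 0 was 6 with that fold enrichment, 4 with the summit inside the span, and 0 to 2 with each library left out. The 6 were 2.68% of members, beside 1.42% of all nuclear genes, and the 4 were 1.79%, beside 0.551%. The difference of 32.5 members per library between stress and control was 14.5 at equal depth and 12.5 with that fold enrichment. Members called higher, 10 by the main test in limma, were 6 when peaks needed a −log10 q of 10 or more, 4 with that fold enrichment, 107 with pileup not scaled, 2 with a change of at least 1.5-fold, and 4 to 9 with each library left out. Members called lower, 15 by that test, were 4 with that fold enrichment of peaks, 9 with fold enrichment in place of pileup, 0 unscaled, 0 with genes in at least 2 libraries filled in at the lowest value, 5 with a change of at least 1.5-fold, 8 for receptor classes only and 4 to 14 with each library left out. All genes called higher were 1408, against 494 with that fold enrichment, 15563 unscaled and 316 at 1.5-fold, and all genes called lower 1862, against 830, 0 and 639; they were 1027 lower by fold enrichment, 3278 lower after division by the library median and 476 lower with filled values.

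The median log2 change of members, -0.0091, was -0.0158 with the summit inside the span or an overlap of at least 200 bp. It was 0.0025 by fold enrichment, -0.0578 after division by the library median, 1.41 unscaled and 0.11 with filled values. With the nearest-start rule it was -0.029, and with each library left out -0.0507 to 0.0281. The median log2 height of members per library had a pooled SD within groups of 0.00607. That SD is of library medians, and not of single genes or of the median change. The median of all genes was -0.0503 after division by the library median and 1.42 unscaled, 0.0499 with filled values. Unscaled pileup carries depth, and with it the log2 change turned positive at AT1G58410 (0.44), AT4G23690 (0.48), AT4G19040 (0.69), AT5G35450 (0.74), AT5G46510 (0.77), AT1G31880 (0.83), AT5G42500 (0.91), AT4G16900 (0.91), AT5G17880 (0.92), AT3G44480 (1.32), AT4G16890 (1.35), AT1G33560 (1.08) and AT5G18370 (1.09). AT5G41550 turned to -0.006 over merged regions, and AT3G03855 to -0.0097 by fold enrichment. With filled values 18 of the 19 named calls were lost; AT2G34930 kept its call. ADR1 passed the threshold under 7 alternatives that kept its direction. The cause of these changes was not tested. Deviations of same-numbered replicates from their group means had a correlation of -0.00346. That value does not show whether the samples were grown or handled in pairs, and the labels do not say. With a replicate block 9 members were called higher and 13 lower, and 1407 and 1757 of all genes; AT5G38340 lost its call. Depth limits weak peaks most in control replicate 2, whose lowest peak was 1.41 FPM.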
